A study of Mus musculus with 9 samples.

Results

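Described here are genes of enzyme families that add methyl groups to histones or remove methyl and acetyl groups from them. Some members, such as Setd3, Hdac10, Sirt4 and Sirt5, are described below with other substrates. The genes were chosen by name: each gene whose symbol begins with Kdm, Kmt, Hdac, Sirt, Setd or Prmt, together with Ezh1 and Ezh2. This gave 56 of the 11931 genes in the deposited table, of which 54 were tested. Kdm1b and Sirt1 did not reach a normalised count of 5 in 3 of the 9 libraries and were not tested. Fibroblasts of normal mammary fat pads, taken from female BALB/c mice aged 12 weeks, had first recovered on collagen. They then grew alone for 5 days (monoculture), or beneath 4T1-GFP cells for 3 days or for 5 days (co-culture), with 3 libraries per group. 4T1 is a mouse mammary carcinoma line of BALB/c origin, marked here with green fluorescent protein (GFP). Fibroblasts were collected by flow sorting as GFP-negative cells that carried podoplanin (PDPN), and libraries were made from the 3′ ends of mRNA. No monoculture of 3 days is among the groups, so that co-culture and days in culture cannot be told apart in the 3-day comparison or between the co-cultures. The labels do not say whether replicates were separate cultures or animals, and p-values measure only the spread between these libraries, which may be technical.

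Histones carry methyl groups on lysines and arginines and acetyl groups on lysines. SET domain enzymes of the KMT, SETD and EZH families methylate lysines, and PRMT enzymes methylate arginines, while KDM enzymes demethylate lysines, and histone deacetylases and the NAD-dependent sirtuins remove acetyl groups. Methylation of lysine 4 of histone H3 (H3K4) marks active promoters and enhancers, whereas that of lysines 9 and 27 (H3K9, H3K27) marks silenced chromatin, and class IIa deacetylases act mostly as signal-dependent corepressors of transcription factors such as MEF2.

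Reads assigned to genes numbered 2623911 to 3567326 per library in monoculture, 1048471 to 2579766 at 3 days and 1459381 to 1987168 at 5 days. Every co-culture library held fewer reads than every monoculture, so that depth differs with co-culture. All 12 listed fibroblast markers were measured in each group, with none at 0. Of the 12, 4 fell and 0 rose at 3 days (Col3a1, Pdgfra, Pdgfrb and Thy1), and at 5 days Dcn fell as well and Vim rose, with a median log2 fold change of -0.12 at 3 days and -0.79 at 5 days. Their summed level was 63436 to 88711 in monoculture, 65964 to 82821 at 3 days and 59730 to 78738 at 5 days. Of 22 listed epithelial and carcinoma markers 18 were in the table and 16 were tested, and 14 rose at each time. Of the 18, 4 had a mean of at least 5 in monoculture and 15 in each co-culture. Many thus passed the filter on low values through the co-cultures, where they are high, and their count is a description. Their summed level was 63.5 to 84.6 in monoculture, 1141 to 1311 at 3 days and 1120 to 1575 at 5 days, and Cldn3, Elf3 and Grhl2 had 0 reads in the monocultures. All 3 tested adipocyte markers fell at each time, with summed levels of 159.7 to 357.2, 18.3 to 62.7 and 15.3 to 32.4 in the same order. Of 3 tested basal markers Krt14 and Sfn rose at each time, and of 3 tested pericyte markers Cspg4 did. The summed basal level was 86.1 to 97.2 in monoculture, 82.2 to 133.5 at 3 days and 95.3 to 138.7 at 5 days. Of 5 tested macrophage and leukocyte markers only Csf1r passed, lower at 5 days and between the days. Their median log2 fold change was 0.86 at 3 days and -0.33 at 5 days. Only 2 of 9 endothelial markers were in the table, and neither passed. Of all tested genes 10.6% rose and 9.37% fell at 3 days, and 12.6% rose and 11.4% fell at 5 days. The part of any of these cell types in the differences below was not tested. In bulk RNA, fewer cells of a type and less RNA per cell cannot be told apart.

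Two-sided tests used limma on log2(value + 1), with Benjamini-Hochberg adjustment over the 10639 tested genes and a threshold of 0.05. The deacetylase genes Hdac7 and Hdac5 fell at both times of co-culture. At 5 days Hdac10, the H3K4 methyltransferase genes Kmt2d and Setd1b and the H3K27 demethylase gene Kdm6b also fell. The sirtuin gene Sirt5 rose at 5 days, and the sirtuin gene Sirt4 fell, with a 5-day library within the monoculture range. The H3K9 methyltransferase gene Setdb2 was called lower at 5 days, but it passed the filter on low values only through the groups where it is high. At 3 days Setd1b and the H3K9 demethylase gene Kdm3a fell, calls that held under only 8 and 9 of 21 alternative analyses. The arginine methyltransferase gene Prmt7 rose at 3 days. The sequences upstream of 4 of these genes are shown, 2 deacetylase genes that fell at both times and 2 sirtuin genes called in opposite directions at 5 days. Each is the 250 bases before the transcription start on the gene's strand, from RefSeq on GRCm38.p6. Capitals mark ACGTG, a form of the core of the hypoxia response element, or CACGT, the same letters on the other strand. The E-box CACGTG holds both and counts as 2 matches. Another form of the core, GCGTG, was not searched for and is not marked. The windows are chr11:102230173-102230422 (minus strand) for Hdac5, chr15:97831496-97831745 (minus strand) for Hdac7, chr5:115484298-115484547 (minus strand) for Sirt4 and chr13:43365285-43365534 (plus strand) for Sirt5.
Hdac5: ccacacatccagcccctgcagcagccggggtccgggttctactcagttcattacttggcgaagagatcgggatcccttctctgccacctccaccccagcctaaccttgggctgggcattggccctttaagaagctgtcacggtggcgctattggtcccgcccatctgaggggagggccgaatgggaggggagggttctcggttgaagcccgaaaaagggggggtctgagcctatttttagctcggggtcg
Hdac7: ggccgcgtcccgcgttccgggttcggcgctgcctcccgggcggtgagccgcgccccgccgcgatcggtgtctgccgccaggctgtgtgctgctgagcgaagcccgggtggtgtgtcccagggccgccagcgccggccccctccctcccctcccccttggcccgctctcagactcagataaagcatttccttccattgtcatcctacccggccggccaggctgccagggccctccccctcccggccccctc
Sirt4: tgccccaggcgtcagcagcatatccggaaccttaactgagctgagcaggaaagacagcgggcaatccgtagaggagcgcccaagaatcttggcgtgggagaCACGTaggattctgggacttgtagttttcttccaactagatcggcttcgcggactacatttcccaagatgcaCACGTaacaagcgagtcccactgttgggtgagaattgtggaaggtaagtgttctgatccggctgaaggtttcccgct
Sirt5: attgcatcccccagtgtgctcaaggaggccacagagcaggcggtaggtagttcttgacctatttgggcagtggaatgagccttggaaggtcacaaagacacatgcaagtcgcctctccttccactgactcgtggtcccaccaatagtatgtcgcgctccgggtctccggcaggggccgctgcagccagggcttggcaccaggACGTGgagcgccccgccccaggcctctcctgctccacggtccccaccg
The Sirt4 window held 2 matches and that of Sirt5 held 1, while the Hdac5 window and the 4 listed windows of Hdac7 held 0. Windows were found for 46 of the 56 members, and 13 of these (28.3%) held a match, beside 18.5% of 27025 genes. Of the 11 members that passed in a comparison 8 had a window, and Sirt4 and Sirt5 were the 2 with a match (25%). Hdac5, Hdac7, Kdm3a, Kmt2d, Prmt7 and Setdb2 had 0. A match is a run of letters and not a shown binding site.

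After 3 days 5 of 54 tested members passed against monoculture (9.26%, 1 higher and 4 lower), where 20.0% of all tested genes passed, 10.6% higher and 9.37% lower. After 5 days 9 of 54 passed (16.7%, 1 higher and 8 lower), where 24.0% of all genes passed, 12.6% higher and 11.4% lower. Between the co-cultures 1 of 54 passed (1.85%, lower at 5 days), beside 6.91% of all genes, 3.20% higher and 3.71% lower. The median log2 fold change of the members was -0.08 at 3 days, -0.19 at 5 days and -0.10 between the days, beside 0.0014, -0.0078 and -0.0052 over all genes. At 3 days 31 of 54 members had a fold change below 0, and at 5 days 36 had (34 after quantile normalization). Libraries of the 2 groups did not overlap for 18 members at 3 days (33.3%, beside 37.4% of all genes), for 17 at 5 days (31.5%, beside 40.9%) and for 8 between the days (14.8%, beside 24.6%). At 3 days 3 members passed without monoculture replicate 2, monoculture replicate 3, 3-day replicate 2 or 5-day replicate 2. At 5 days 4 passed without monoculture replicate 1 and 5 without monoculture replicate 3. Thinned to the depth of the shallowest library, 2 passed at 3 days and 7 at 5 days.

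**Figure D1:**
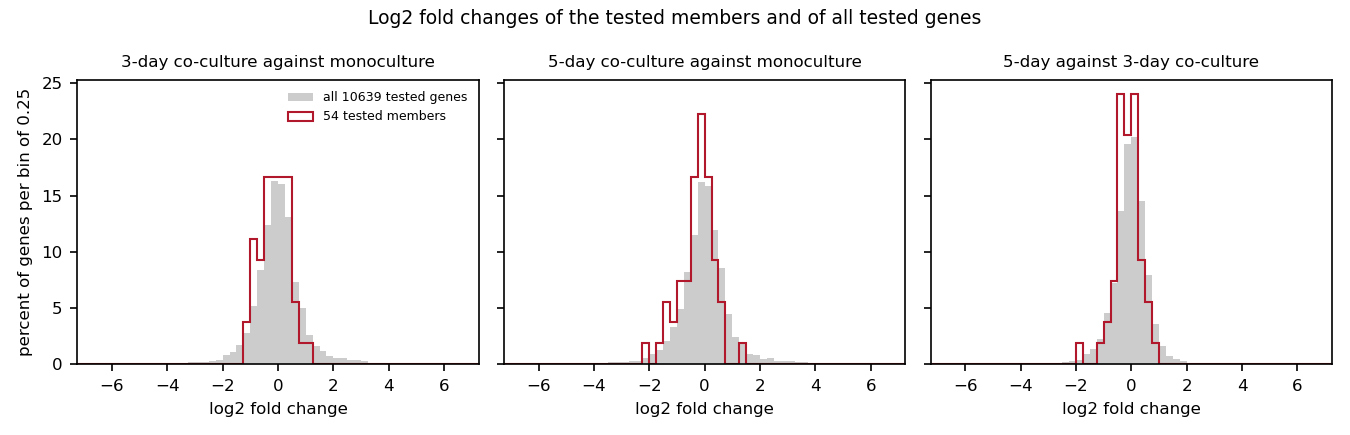
Percent of genes per bin of log2 fold change in each comparison, for all tested genes (grey) and the 54 tested members (red line). Medians of the members are -0.08, -0.19 and -0.10, and their values run from -2.03 to 1.25 at 5 days, where all genes run from -6.57 to 7.17.

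Of the 3 class IIa deacetylase genes 2 fell at each time, where 9.37% (3 days) and 11.4% (5 days) of all tested genes fell. Hdac7 (chromosome 15, 97792664 to 97844502, minus strand, mm10) had 570.0, 569.1 and 611.9 when grown alone, 298.9, 309.1 and 278.3 with 4T1 for 3 days and 265.1, 196.5 and 240.9 with 4T1 for 5 days, in normalised counts. All co-culture libraries lay below the monocultures, and the 5-day libraries lay below the 3-day ones. The log2 fold change, which on this scale understates changes of low genes, was -0.98 ± 0.17 at 3 days (standard error of the fit, adjusted p = 0.00057) and -1.32 ± 0.17 at 5 days (adjusted p = 2.6e-05). Between the days it was -0.34 ± 0.17, adjusted p = 0.24. Exons of Hdac7 and of Slc48a1 on the opposite strand share 29 bases, and without a stated strand setting reads there cannot be told apart. Slc48a1 had means of 476.6, 522.6 and 191.0 in monoculture, 3-day and 5-day co-culture.

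Hdac5 (chromosome 11, 102194432 to 102230166, minus strand) encodes a class IIa deacetylase that leaves the nucleus when phosphorylated. It had 337.3, 322.5 and 276.4 when grown alone, 207.6, 181 and 135 with 4T1 for 3 days and 189.6, 134.1 and 147.3 with 4T1 for 5 days. The co-culture libraries lay below all monocultures, and the days of co-culture overlapped. Hdac5 fell at 3 days (-0.85 ± 0.20, adjusted p = 0.0068) and at 5 days (-0.997 ± 0.20, adjusted p = 0.0019). These calls of Hdac5 and Hdac7 held under 21 of 21 alternatives each, the 9 that left out 1 library included. Hdac4, the other class IIa gene, had means of 30.4 ± 10.8 alone, 44 ± 25.04 after 3 days and 28.4 ± 4.06 after 5 days (SD, n = 3) and did not pass.

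Hdac10 (chromosome 15, 89123307 to 89128700, minus strand), for a polyamine deacetylase of class IIb, had 42.7, 28.8 and 27.6 when grown alone, 19.9, 19.5 and 12.5 with 4T1 for 3 days and 16.2, 15.8 and 11.2 with 4T1 for 5 days. Its co-culture libraries lay below all monocultures at both times. Hdac10 fell at 5 days (-1.13 ± 0.31, adjusted p = 0.013), and the 3-day value was -0.90 ± 0.31, adjusted p = 0.052. The 5-day fall no longer passed without monoculture replicate 1 (adjusted p = 0.076) or 5-day replicate 3 (0.053), in a range of 0.0087 to 0.076 over its alternatives. Hdac6, the gene of the tubulin deacetylase, had means of 48.8, 49.7 and 49.4 in monoculture, 3-day and 5-day co-culture, the order kept for all means below. Hdac11, the class IV gene, had 13.6, 11.2 and 8.47.

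None of the 4 class I genes passed. Hdac1 and Hdac2 encode catalytic subunits of the NuRD, SIN3 and CoREST complexes. Hdac2 had means of 131.4 ± 8.28 alone, 125.1 ± 4.12 after 3 days and 122.7 ± 15.96 after 5 days (SD, n = 3), and the 95% interval of its log2 fold change at 5 days was -0.48 to 0.28. Hdac1 had 130.6, 35.1 and 54 when grown alone, 34.9, 40.4 and 27.8 with 4T1 for 3 days and 44.9, 45.6 and 57.4 with 4T1 for 5 days, so that 1 monoculture library lay far above the others. Hdac3, for the subunit of the NCoR and SMRT complexes, had means of 36.03, 31.4 and 44, and Hdac8, for the cohesin deacetylase, of 23.8, 33.6 and 23.

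Sirtuins of mitochondria are encoded by Sirt3, Sirt4 and Sirt5. Sirt5 (chromosome 13, 43365496 to 43395203, plus strand), for an enzyme that removes succinyl and malonyl groups, had 6.8, 7.7 and 7.1 when grown alone, 14.9, 12.5 and 18.1 with 4T1 for 3 days and 9.9, 27.9 and 22.5 with 4T1 for 5 days. All co-culture libraries lay above the monocultures. Sirt5 rose at 5 days (1.25 ± 0.38, adjusted p = 0.024), and the 3-day value was 0.97 ± 0.38, adjusted p = 0.084. It had 137 reads in all, and the 5-day rise no longer passed without monoculture replicate 1 (adjusted p = 0.059) or 3 (0.063), without 5-day replicate 2 (0.13) or 3 (0.086) and with thinned reads (0.15), in a range of 0.0044 to 0.15.

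Sirt4 (chromosome 5, 115478010 to 115484725, minus strand), for a mitochondrial lipoamidase and ADP-ribosyltransferase, had 21.7, 21.6 and 18 when grown alone, 23.2, 19.5 and 9.7 with 4T1 for 3 days and 3.6, 3.7 and 18.7 with 4T1 for 5 days. The third 5-day library lay within the monoculture range, and the other 5-day libraries were far below it. Sirt4 fell at 5 days (-1.51 ± 0.49, adjusted p = 0.035), and the 3-day value was -0.29 ± 0.49, adjusted p = 0.73. The fall no longer passed without monoculture replicate 1 (adjusted p = 0.082), 2 (0.085) or 3 (0.069), without 5-day replicate 1 (0.15) or 2 (0.15), and with DESeq2 or thinned reads, in a range of 0.0018 to 0.15. Sirt3, for the main mitochondrial deacetylase, had means of 31.2, 29.4 and 23.9, and Sirt2, for the cytosolic tubulin deacetylase, of 285.1, 309.8 and 315.4. The nuclear sirtuin genes Sirt6 and Sirt7 had 17.6, 11.9 and 15.2 and 72.7, 69.9 and 76.1, and none of these 4 passed. Sirt1, not tested, had 39 reads and means of 4.7, 3.13 and 1.3.

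**Figure D2:**
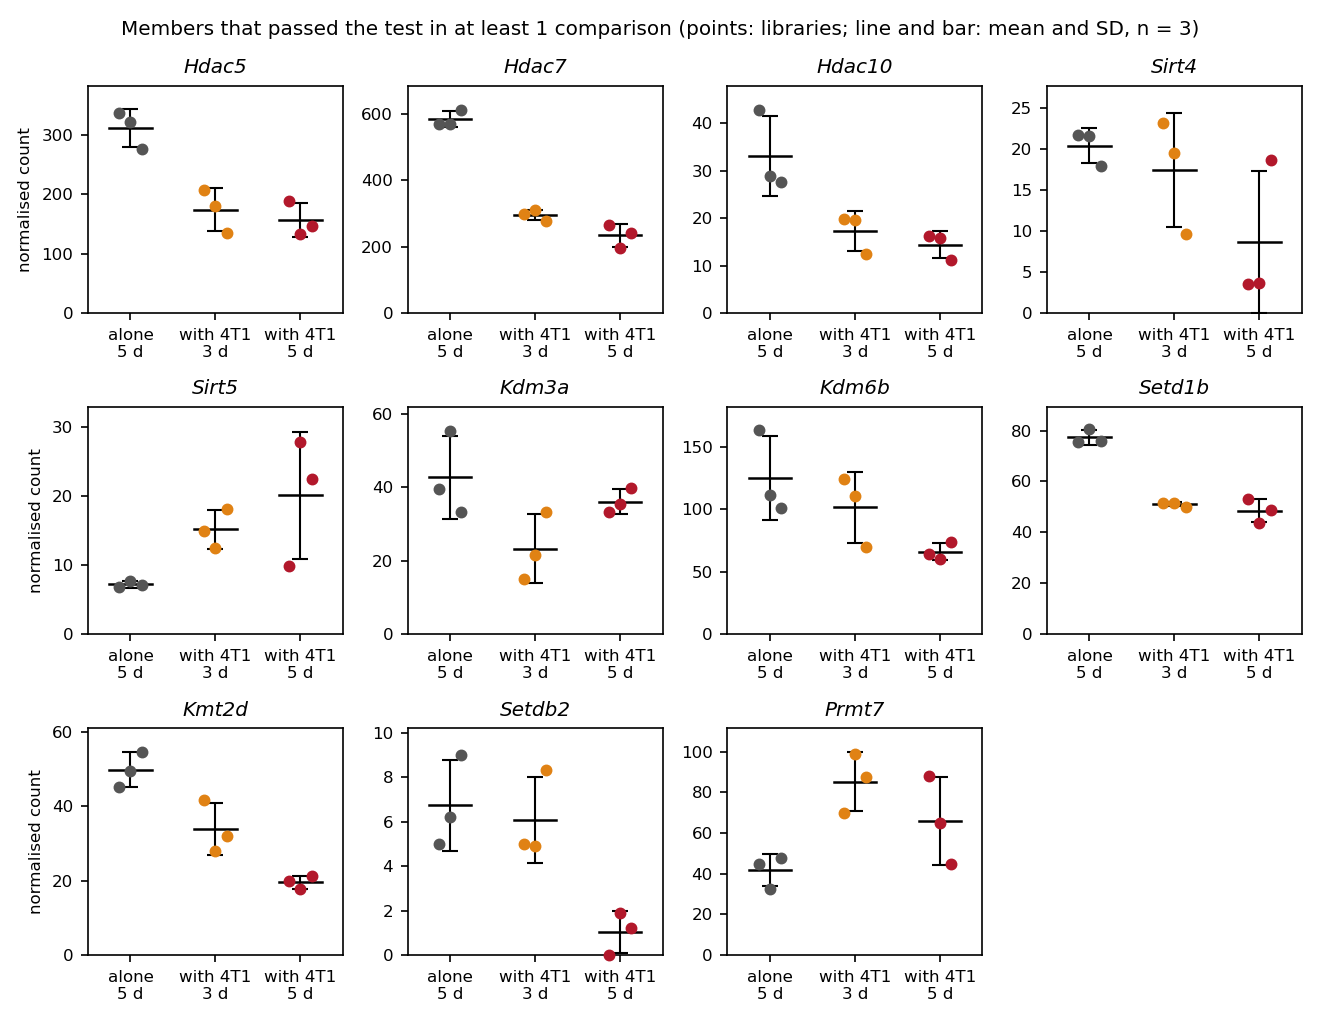
Normalised counts of the 11 members that passed in at least 1 comparison, with 1 point per library and the mean and SD of 3 libraries per group. In Hdac5, Hdac7, Hdac10, Setd1b, Kmt2d and Sirt5 both co-cultures lie apart from monoculture, whereas 1 of the 5-day libraries of Sirt4 stands at 18.7.

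H3K4 is methylated by the MLL proteins of Kmt2a to Kmt2d and by SETD1A and SETD1B, which act within COMPASS complexes, and by SETD7. Kmt2e was listed with these genes by its family name. Of the 8 tested genes 1 fell at 3 days and 2 at 5 days, and 0 rose, where 9.37% and 11.4% of all genes fell. In both comparisons 7 of 8 had a log2 fold change below 0 (beside 5311 and 5382 of all 10639 genes), with medians of -0.54 and -0.76, and these counts were the same under median-of-ratios, TMM and quantile scaling. Kmt2a was the other one, with means of 97.8, 105.8 and 114.9. Both comparisons used the same monocultures, so the second is no independent repeat, and between the days 4 lay above 0 and 4 below. Other roles also leaned to 1 side. All 4 other SET domain genes lay above 0 at 3 days and 3 at 5 days, and all 3 KDM4 genes lay below 0 at both times.

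Kmt2d (chromosome 15, 98831669 to 98871204, minus strand), for a methyltransferase of enhancers, had 45.2, 49.5 and 54.6 when grown alone, 41.5, 27.8 and 32 with 4T1 for 3 days and 19.8, 17.7 and 21.2 with 4T1 for 5 days. The 3 groups did not overlap, with the 5-day libraries lowest. Kmt2d fell at 5 days (-1.30 ± 0.25, adjusted p = 0.0012), a call held under 21 of 21 alternatives. The 3-day value was -0.56 ± 0.25, adjusted p = 0.13, and that between the days -0.74 ± 0.25, adjusted p = 0.086.

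Setd1b (chromosome 5, 123142193 to 123168629, plus strand) had 75.5, 80.8 and 75.8 when grown alone, 51.5, 51.5 and 50.1 with 4T1 for 3 days and 53, 43.8 and 48.7 with 4T1 for 5 days. Libraries were close within each group, and every co-culture value lay below every monoculture. Setd1b fell at 3 days (-0.59 ± 0.20, adjusted p = 0.049) and at 5 days (-0.67 ± 0.20, adjusted p = 0.023). The 3-day call held when 5-day replicate 3 was left out and was lost without each of the other 8 libraries (adjusted p from 0.053 to 0.14, in a range of 0.037 to 0.60 over its alternatives). The 5-day call was lost without monoculture replicate 1 (0.058), 2 (0.082) or 3 (0.066) or 5-day replicate 2 (0.084), in a range of 0.017 to 0.28. The 3-day call held under 8 of 21 alternatives. It was also lost with no filter, the replicate block, the compared groups alone, DESeq2 and thinned reads. The 5-day call held under 16 of 21 and was also lost with thinned reads. With thinned reads the values were -0.24 at 3 days and -0.43 at 5 days.

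Kmt2b, for the MLL2 protein, had 45.8, 31.7 and 32.1 when grown alone, 28.2, 20.2 and 7 with 4T1 for 3 days and 15.3, 14.9 and 20.0 with 4T1 for 5 days. Both co-cultures lay below the monocultures without passing (adjusted p = 0.058 and 0.060). Setd7, for a monomethyltransferase, had 118.8, 99.5 and 100.9 when grown alone, 81.4, 69.6 and 71 with 4T1 for 3 days and 62, 95 and 69.9 with 4T1 for 5 days, also without overlap (adjusted p = 0.096 and 0.094). Kmt2c, for the other enhancer methyltransferase, had 17.9, 13.3 and 8.97, with the 5-day libraries below all monocultures (adjusted p = 0.063). Kmt2e (31.8, 14.7 and 17) and Setd1a (84.2, 69.03 and 63.2) overlapped between monoculture and co-culture.

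**Figure D3:**
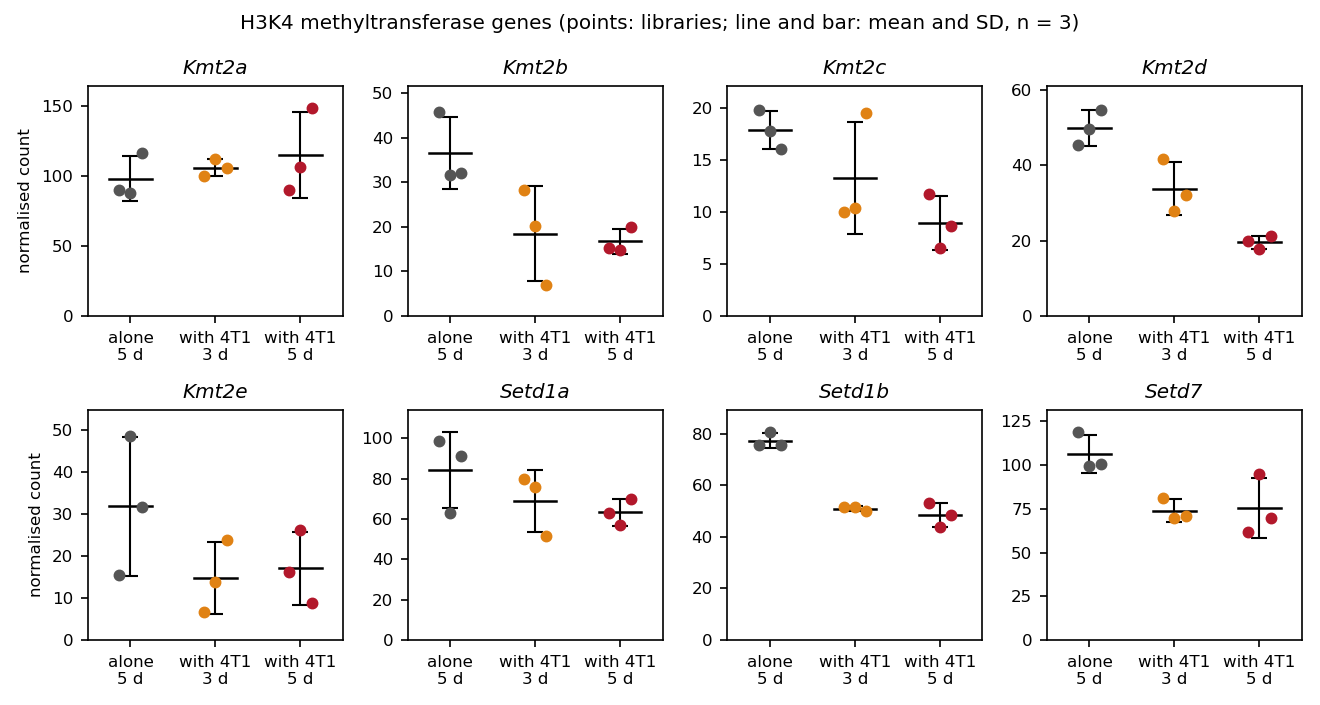
Normalised counts of the 8 genes listed as H3K4 methyltransferases, with 1 point per library and the mean and SD of 3 libraries per group. The means of 7 genes are lower in both co-cultures than in monoculture, and those of Kmt2a are 97.8, 105.8 and 114.9.

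Among H3K9 methyltransferase genes, Setdb2 (chromosome 14, 59402009 to 59440884, minus strand) had 5, 6.2 and 9 when grown alone, 5, 4.9 and 8.3 with 4T1 for 3 days and 0, 1.9 and 1.2 with 4T1 for 5 days. These values stand for 35 reads in the monocultures, 16 at 3 days and 3 at 5 days, and all 5-day libraries lay below the others. The ratio of 5-day co-culture to monoculture was 0.151 (exact 95% interval 0.0297 to 0.478, counting error only), and that to 3-day co-culture was 0.173 (0.0323 to 0.605). Setdb2 fell at 5 days against monoculture (limma adjusted p = 0.0098) and was the 1 member to pass between the days (adjusted p = 0.039). It passed the filter through the monocultures and the 3-day libraries only, where it is high, so these calls are given as a description. The first call was lost without monoculture replicate 3 (0.064, range 0.0065 to 0.064). The second held under 6 of 20 alternatives (range 0.033 to 0.16), and with 1 library left out it held only without 5-day replicate 2. Setdb1, for an enzyme that silences endogenous retroviruses, had means of 26.1, 28.6 and 27.6.

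EZH1 and EZH2 methylate H3K27 within Polycomb repressive complex 2 (PRC2). Ezh2 had 12.4, 25.5 and 21.9 when grown alone, 23.2, 25.8 and 25 with 4T1 for 3 days and 32.3, 31.7 and 27.5 with 4T1 for 5 days. The 5-day libraries lay above all others without passing against monoculture (0.64 ± 0.29, adjusted p = 0.12). Ezh1 had means of 49.2, 64 and 38.1 (adjusted p = 0.096 between the days). Setd2, for the enzyme that completes H3K36 methylation, had 60.8, 60.3 and 43.6. Setd8, an older symbol of the H4K20 methyltransferase gene Kmt5a, had 339.8, 244.2 and 307.9 when grown alone, 395.2, 380.1 and 360.3 with 4T1 for 3 days and 346.8, 361.4 and 533.1 with 4T1 for 5 days, with both co-cultures above all monocultures (adjusted p = 0.21 and 0.10).

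The 4 other SET domain genes did not pass. Setd3, for the actin histidine methyltransferase, had 182.6, 161 and 183.2 alone and 205.9 to 274.1 in co-culture, without overlap (adjusted p = 0.10 and 0.080). Setd6, for an enzyme that methylates RelA, had 22.9, 26.9 and 31.5 when grown alone, 39.9, 43.9 and 39 with 4T1 for 3 days and 38.6, 35.4 and 36.2 with 4T1 for 5 days, also without overlap (adjusted p = 0.092 and 0.20). Setd4 and Setd5 had 14.6, 21.8 and 17.2 and 121.1, 139.6 and 116.3.

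Of 7 arginine methyltransferase genes 1 passed at 3 days and 0 at 5 days, where 20.0% and 24.0% of all tested genes passed. Prmt7 (chromosome 8, 106210936 to 106252794, plus strand), for an enzyme that forms monomethylarginine, had 44.6, 32.7 and 47.6 when grown alone, 69.7, 98.8 and 87.7 with 4T1 for 3 days and 88.1, 65.2 and 44.9 with 4T1 for 5 days. The 3-day libraries lay above all monocultures, and the 5-day libraries overlapped with them. Prmt7 rose at 3 days (1.02 ± 0.26, adjusted p = 0.011), and the 5-day value was 0.62 ± 0.26, adjusted p = 0.10. The call was lost without monoculture replicate 2 (0.056) or 3-day replicate 2 (0.057) and with thinned reads (0.054), in a range of 0.0037 to 0.057. Exons of Prmt7 share 247 bases with Smpd3 on the opposite strand, where reads cannot be told apart. Smpd3 is not in the deposited table, so no level of it can be given.

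Prmt1, for the main asymmetric arginine methyltransferase, had 381.2, 365.3 and 455 when grown alone, 282.3, 332 and 199 with 4T1 for 3 days and 381.9, 289.7 and 410.7 with 4T1 for 5 days. At 3 days it lay below all monocultures without passing (-0.59 ± 0.21, adjusted p = 0.058). Prmt5, for the main symmetric arginine methyltransferase, had means of 142.3, 195.2 and 183.0, with the 3-day libraries above all monocultures (adjusted p = 0.12). Prmt2 had 23.8, 19.3 and 20.1, and Prmt3 80.5, 83.5 and 70.6. Prmt6 had 10.9, 8.43 and 7.87, and Prmt10, an older symbol of Prmt9, 37.3, 48.6 and 48.8.

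**Figure D4:**
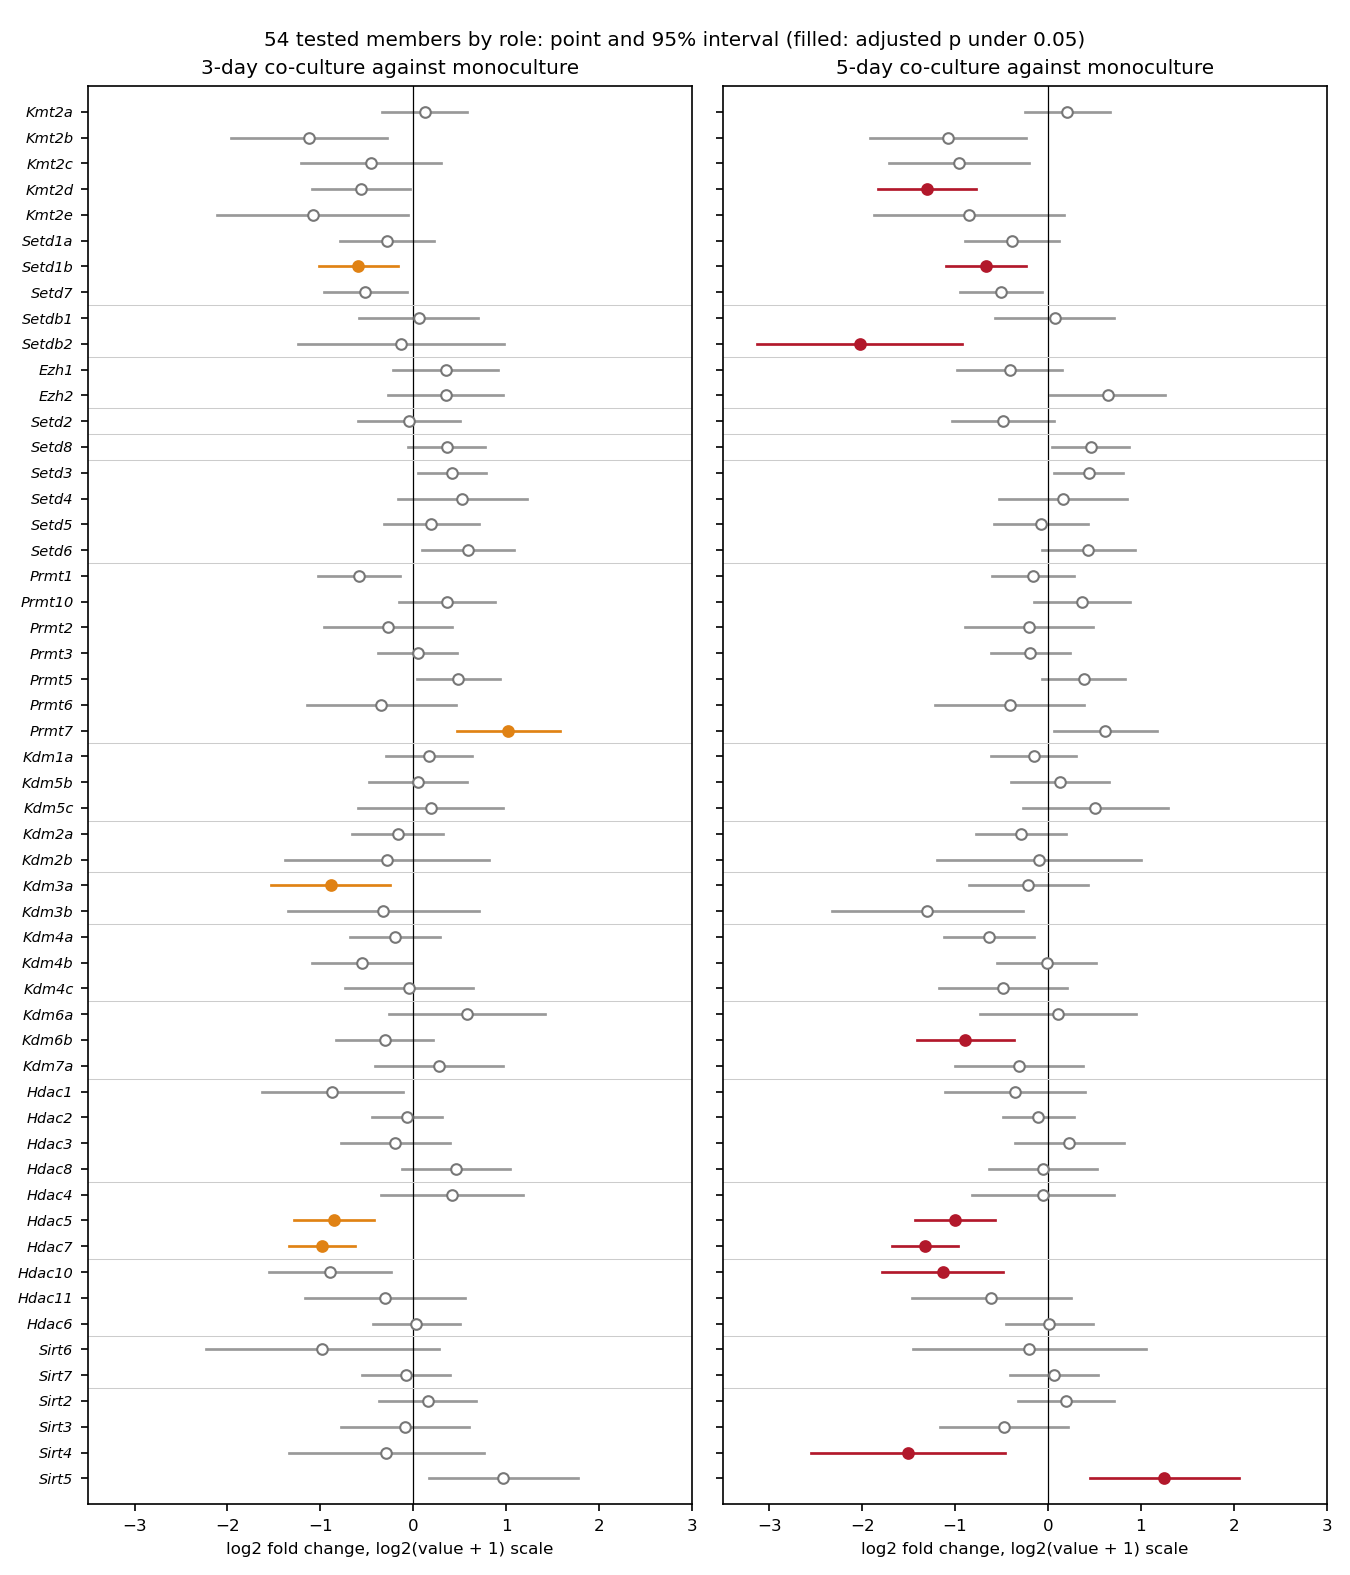
Log2 fold change and 95% interval of the 54 tested members at 3 and 5 days of co-culture against the same monocultures, in blocks by role. Filled points passed at an adjusted p under 0.05, 5 in the left panel and 9 in the right, with Hdac5, Hdac7 and Setd1b filled in both.

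Of 13 tested demethylase genes 1 fell at 3 days and another at 5 days, where 9.37% and 11.4% of all tested genes fell. Kdm3a (chromosome 6, 71588972 to 71632990, minus strand), for an H3K9 demethylase and known as a target of hypoxia-inducible factor (HIF), had 39.6, 55.3 and 33.4 when grown alone, 14.9, 21.6 and 33.4 with 4T1 for 3 days and 33.2, 35.4 and 39.9 with 4T1 for 5 days. The third 3-day library equalled the lowest monoculture, and the other 3-day libraries lay below it. Kdm3a fell at 3 days (-0.89 ± 0.30, adjusted p = 0.048), and the value between the days was 0.68 ± 0.30, adjusted p = 0.19. The call held under 9 of 21 alternatives (range 0.013 to 0.19), and with 1 library left out it held only without 3-day replicate 3. None of its 3 upstream windows held ACGTG, and GCGTG was not searched for. Of 19 tested hypoxia genes 2 rose and 8 fell at 3 days (beside 10.6% and 9.37% of all genes), 2 rose and 2 fell at 5 days (12.6% and 11.4%), and 6 rose and 1 fell between the days (3.20% and 3.71%). Their median log2 fold changes were -0.59, 0.27 and 0.56. Egln1, for a HIF prolyl hydroxylase, had means of 192.4, 58.9 and 234.7, and Vegfa of 754.2, 1474 and 1038. Whether HIF had a part in the values of Kdm3a, or of Kdm4b below, was not tested.

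Kdm6b (chromosome 11, 69398508 to 69413675, minus strand), for an inducible H3K27 demethylase known from macrophage activation, had 163.4, 111.5 and 100.9 when grown alone, 124.5, 110.7 and 69.6 with 4T1 for 3 days and 63.8, 60.5 and 73.7 with 4T1 for 5 days. The 5-day libraries lay below all monocultures, and the 3-day libraries overlapped with both groups. Kdm6b fell at 5 days (-0.89 ± 0.25, adjusted p = 0.015), and the 3-day value was -0.31 ± 0.25, adjusted p = 0.41. The call was lost without monoculture replicate 1 (0.082) or 5-day replicate 2 (0.055), in a range of 0.0043 to 0.082. Kdm6bos, on the opposite strand, shares 149 exon bases with Kdm6b and is not in the deposited table. The X-linked relative Kdm6a had means of 7.6, 12.97 and 8.3, and Kdm7a of 15.1, 18.3 and 12.03.

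The other demethylase genes did not pass. Kdm4a, for an H3K9 and H3K36 demethylase, had means of 107.0, 92.4 and 69.5 (adjusted p = 0.057 at 5 days). Its relative Kdm4b, another known HIF target, had 53.5, 36 and 54.4, with the 3-day libraries below all monocultures (adjusted p = 0.14), and Kdm4c had 25.2, 24.4 and 19.1. Kdm3b, an H3K9 demethylase gene, had 16.8, 14.9 and 6.73, with no overlap at 5 days (adjusted p = 0.063). The H3K36 demethylase genes Kdm2a and Kdm2b had 53.1, 46.97 and 43.5 and 6.23, 4.8 and 5.2. Of the H3K4 demethylase genes, Kdm1a had 87.3, 97.97 and 79.8, Kdm5b 41.2, 43.1 and 45.03 and Kdm5c 10.1, 11.4 and 14.5. Kdm1b, not tested, had 40 reads and means of 3.47, 2.67 and 4.53.

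Partners of these enzymes were taken from 8 lists, with 110 genes tested. Of these 4 rose and 8 fell at 3 days, 4 rose and 11 fell at 5 days, and 0 rose and 2 fell between the days, with medians of -0.08, -0.09 and -0.04. The rises include Prdm9 at both times and Rsbn1 at 3 days, which passed the filter on low values through co-culture libraries only. Of all genes 10.6% rose and 9.37% fell at 3 days, 12.6% and 11.4% at 5 days, and 3.20% and 3.71% between the days, and the counts of each list below stand beside the same shares. Of 26 subunits of deacetylase complexes 0 rose and 3 fell at 3 days, and 2 rose and 2 fell at 5 days. Chd3, for a NuRD helicase, fell at both times (adjusted p = 0.00066 and 0.00026), with means of 637.4 ± 93.3 alone, 294.2 ± 44.1 after 3 days and 277.8 ± 51.6 after 5 days (SD, n = 3). Mbd3, another NuRD subunit gene, fell from 370.1 to 215.5 and 237.0. Rcor2, for a CoREST subunit, and Sin3b, for a SIN3 scaffold, rose at 5 days, from 22 to 51 and from 398.6 to 771.2.

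Of 16 PRC1 subunit genes 2 fell at each time, Cbx6 (290.8, 129.2 and 73.3) and Cbx7 (30.7, 13.4 and 6.87), whose products read methylated H3K27, and 0 rose. Of 8 PRC2 subunit genes 0 passed at 3 days and Phf1 fell at 5 days, with means of 46.1, 61.03 and 28.4. Of 10 COMPASS subunit genes Hcfc1 fell at 3 days, from 121.6 to 78.97. Cxxc1, which recruits SETD1 enzymes to CpG islands, fell at 5 days from 99.4 to 50.4, as did Pagr1a, a partner of KMT2C and KMT2D, from 106.7 to 70.4.

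Of 13 acetyltransferase genes 0 rose and 1 fell at each time, Naa60, from 192.7 to 113.9 and 99.3. Of 17 methyltransferase genes under other names Smyd5 rose from 69.8 to 121.6 and 116.5 and Prdm9 from 1.97 to 7.33 and 6.7, and 0 fell. Of 7 demethylase genes under other names Phf2, for an H3K9 demethylase, fell from 119.7 to 68.9 and 57.6, and Rsbn1 rose at 3 days from 3.2 to 10.6. Prdm9 and Rsbn1 passed the filter through co-culture libraries only, where they are high, so their calls are given as a description. Of 13 readers of acetyl-lysine Brd7 rose at 3 days, from 73.3 to 130.4, and the BET protein genes Brd2 and Brd3 fell at 5 days, from 331.8 to 166.5 and from 49.2 to 20.2.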

How the data were processed

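The submitters' processing notes name bcl2fastq, STAR (version 2.4.2a), HTSeq and the mouse build mm10. Annotation, strand setting, gene filter and library factors are not given in the sources used here. The values deposited by the authors are normalised counts, a signal equal to reads times a constant of the library. Whole reads were recovered for 99.87% to 100% of values per library (within 0.051). Columns were matched to libraries by name, and the column of 5-day replicate 2, which names no 4T1, by elimination.

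Limma 3.58.1 in R 4.3.3, with a trend, was fitted to all 9 libraries with 1 mean per group, on genes with values of 5 or more in 3 or more libraries. On recovered reads edgeR 4.0.16 called 2239, 2736 and 676 genes in the 3 comparisons, where limma called 2129, 2552 and 735. The other alternatives were DESeq2 1.42.0, pseudocounts, filters, scalings, a replicate block, the compared groups alone, thinned reads and each library left out. The steps were tested on simulated data.

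Members and lists were chosen with earlier results of these data known. By the naming rule, members that passed are given with every library's value, the others with means (or library values where they lay apart from monoculture at both times), and other lists with up to 3 called genes per comparison by the smallest adjusted p. The library values of Hdac1, Ezh2 and Prmt1, and Vegfa, were added after their values were seen. Upstream windows were shortened to end at the transcription start after a first look at their matches. Positions are from GENCODE M21, with 2 of 56 members matched through RefSeq synonyms.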

Additional observations from a re-analysis of the deposited data

Results flagged for a closer look

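Setdb2 stood out because its level differed between 3 and 5 days of co-culture: the log2 fold change from 3 to 5 days was -1.90 ± 0.52 (standard error, limma adjusted p = 0.039, range 0.033 to 0.16 over its alternatives). Against monoculture the values were -0.13 at 3 days and -2.03 at 5 days. The difference rests on 16 reads at 3 days and 3 reads at 5 days. Setdb2 passed the filter on low values only through the monocultures and the 3-day libraries, where it is high, so the test gives no independent support to the fall, and its call held under 6 of 20 alternatives. Both co-cultures were compared with the same monocultures of 5 days, so that co-culture and days in culture cannot be told apart.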

How the results depend on the processing

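Calls of Hdac5 and Hdac7 at both times and of Kmt2d at 5 days held under all 21 alternatives. The 5 members called at 3 days became 3 with no filter, 3 with the compared groups alone, 2 with thinned reads, 7 with quantile normalization, 7 with a pseudocount of 5 and 3 to 5 with 1 library left out. The 9 called at 5 days became 6 with a mean of at least 20, 12 with the compared groups alone, 12 with the replicate block and 4 to 12 with 1 library left out. The 1 called between the days became 0 with a pseudocount of 5, a mean of at least 20, quantile normalization, the compared groups alone, edgeR or DESeq2, and 0 to 1 with 1 library left out. The gene called was not always Setdb2. It was Kmt2d with thinned reads, Ezh1 without 5-day replicate 1, Kdm6b without 3-day replicate 3 and Sirt4 without 5-day replicate 3. In limma 7 members had an unadjusted p under 0.05 between the days. Over all genes the 735 calls between the days became 311 to 749 with 1 library left out, with 311 without 3-day replicate 2 and 439, 423 and 450 without 5-day replicates 1, 2 and 3. Signs turned for 3 values that were not called. With 1 library left out, Setdb2 at 3 days ran from -0.35 to 0.071 (highest without monoculture replicate 3), Sirt4 at 3 days from -0.53 to 0.060 (highest without 3-day replicate 3) and Sirt5 between the days from -2.5e-05 (without 5-day replicate 2) to 0.70. The cause was not tested. Deviations of libraries that share a replicate number had correlations of -0.11 to 0.23, and those of other numbers -0.30 to 0.32. With 3 libraries per group this cannot show whether the numbers pair them. With the replicate block 6, 12 and 1 members were called in the 3 comparisons. Depth limits Setdb2, Sirt5 and Sirt4, which had 54, 137 and 180 reads in all.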
